A study of Mus musculus with 60 samples.

Results

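Mouse liver 6 h after 2/3 partial hepatectomy (PHX), the surgical removal of most of the liver, was compared with normal liver, using 6 of the 60 samples of the series. The members are the genes with at least 1 FPKM (fragments per kilobase of transcript, scaled to the depth of the library) in 3 or more of the 6 libraries, 10085 of 17473 gene symbols in the liver table. The PHX-6h group held 3 livers of wild-type (WT) C57BL/6 mice (C57BL/6J in the study's methods) taken 6 hours after 2/3 partial hepatectomy, and the Normal liver group 3 livers of WT C57BL/6 mice whose treatment is given as Normal. Mice were 8 to 10 weeks old, no transgene or other agent is named for either group, and livers at 24 h, D3, D7 and D14 after PHX entered the same fit and serve to estimate the spread and to give later levels of a few genes. The sources used here name no sham operation, feeding state or time of day at collection, so effects of surgery, fasting and hour of the day cannot be told apart from those of liver loss. They also do not say whether the 3 livers of a group came from 3 mice, so p-values measure the spread between these samples, which may be technical.

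The liver restores its mass after partial hepatectomy because mature hepatocytes, normally at rest, enter the cell cycle. The first hours are known as the priming phase, when cytokines such as IL6 act through gp130 and STAT3, immediate early transcription factors are induced, and growth factors such as HGF and ligands of EGFR then carry cells into DNA synthesis. In the same hours the liver makes acute phase proteins, secreted in response to injury, and keeps up the supply of glucose and the handling of fat with less tissue.

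The libraries held 55.8 M to 57.9 M reads on genes in normal liver and 62.9 M to 79.3 M at 6 h, and 9984 to 10065 and 9195 to 9519 genes at 1 FPKM or more. Pearson's r across the tested genes was 0.988 to 0.990 within normal liver, 0.975 to 0.988 within the 6 h group and 0.888 to 0.915 between them. The first principal component took 83.1% of the variance and separated the groups. The labelled tissue showed its markers, with all 12 hepatocyte markers tested and their summed level at 67514 to 70748 FPKM in normal liver and 56239 to 61617 at 6 h, and 0 of the 12 called.

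At 6 h, 524 genes were significantly higher and 1277 significantly lower than in normal liver, 5.20% and 12.7% of the genes tested (17.9% in all). A gene was called where limma's adjusted p fell below 0.05 and the change on the log2(FPKM + 1) scale reached 2-fold. Of the 1801 genes called, 1789 had groups that did not overlap, against 65.4% of all genes tested. At least 4-fold, 163 genes were higher and 153 lower, and at least 16-fold, 22 were higher and 8 lower. The median of all genes lay at -0.29 on the log2 scale, and changes of genes and lists below are to be read against it. With median ratio scaling, which moved this median to -0.04, 756 genes were higher (7.50% of those tested) and 795 lower (7.88%), so that the share of higher genes among the calls went from 29.1% to 48.7% (51.6% with quantile normalization, which called 7.32% of genes higher and 6.87% lower, and 45.0% with limma voom on recovered reads, which called 10.1% higher and 12.4% lower). A gene with fewer than 3 livers of a group at 1 FPKM needed the other group's levels to pass the filter, which favours a call towards that other group. Such genes are counted below for some of the lists. Fold changes are ratios of mean FPKM, whereas log2 fold changes are on the log2(FPKM + 1) scale, which understates the change of low genes.

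**Figure D1:**
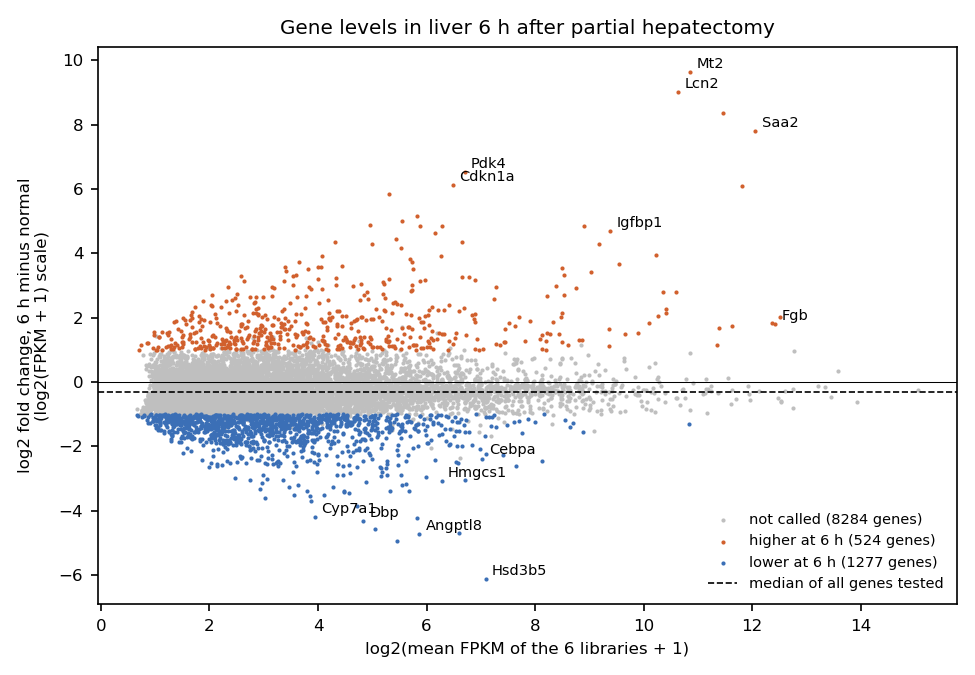
Log2 fold change (6 h minus normal liver, log2(FPKM + 1) scale) of each of the 10085 genes against its mean level over the 6 libraries. Orange points are the 524 genes higher at 6 h, blue points the 1277 lower, and the dashed line is the median of all genes, which lies below 0. The rises reach further from 0 than the falls, from Mt2 at 9.62 to Hsd3b5 at -6.11.

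Metallothioneins, small proteins that bind zinc and copper, were among the largest rises. Mt2 stood at 2.92, 3.68 and 4.60 FPKM in normal liver and at 3995, 3442 and 3658 FPKM at 6 h, a 991-fold higher mean (log2 fold change 9.62 ± 0.47 SE, adjusted p = 5.5e-09). Mt1 stood at 12.3, 20.3 and 16.9 FPKM in normal liver and 6352, 5530 and 5028 FPKM at 6 h, 342-fold higher. Every 6 h library was far above every normal one for both genes. Slc39a14, a zinc and iron importer, rose 9.66-fold (22.0 ± 1.65 to 213 ± 60.6 FPKM, SD, n = 3 each), and the haem-degrading enzyme Hmox1 6.05-fold. In the list for oxidative stress and metals 7 of 20 genes tested were higher and 0 lower, and the classical antioxidant genes Nfe2l2 and Nqo1, named after their values were seen, had log2 fold changes of -0.09 and -0.07 (0.19 and 0.15 with median ratio scaling) and were not called.

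Acute phase proteins formed the list with the largest share of rises. In 2 of the 29 tested fewer than 3 normal livers reached 1 FPKM. Of the 29, 23 were higher, these 2 among them, and 0 lower, with a median log2 fold change of 2.14. The promoters of 5 such genes and of Mt2 are shown here because the C/EBP and STAT families, which act on acute phase genes, are themselves in the results that follow. The 250 bases before each RefSeq start site (GRCm38.p6, which is the build mm10 named by the submitters) run 5′ to 3′ along the gene, at chr2:32387740-32387989 (minus strand), chr7:46751583-46751832 (plus strand), chr5:7960222-7960471 (plus strand), chr3:83049864-83050113 (minus strand), chr7:30944030-30944279 (minus strand) and chr8:94172368-94172617 (plus strand). Capitals mark matches, on either strand, to the motifs STAT (TTCNNNGAA), AP-1 (TGANTCA), CRE (TGACGTCA), C/EBP (TTGCNNAA), NF-kB (by name), E-box (CACGTG) and the serum response element (by name). The windows were chosen after their matches had been seen.
Lcn2: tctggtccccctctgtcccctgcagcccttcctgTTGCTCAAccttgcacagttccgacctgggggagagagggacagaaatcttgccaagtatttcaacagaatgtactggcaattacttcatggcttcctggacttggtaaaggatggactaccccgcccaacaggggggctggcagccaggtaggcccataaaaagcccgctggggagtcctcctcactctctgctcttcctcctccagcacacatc
Saa2: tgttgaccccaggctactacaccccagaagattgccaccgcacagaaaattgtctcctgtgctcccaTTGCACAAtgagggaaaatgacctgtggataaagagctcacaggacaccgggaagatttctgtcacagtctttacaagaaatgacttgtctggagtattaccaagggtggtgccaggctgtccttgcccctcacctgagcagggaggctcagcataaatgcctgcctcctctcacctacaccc
Steap4: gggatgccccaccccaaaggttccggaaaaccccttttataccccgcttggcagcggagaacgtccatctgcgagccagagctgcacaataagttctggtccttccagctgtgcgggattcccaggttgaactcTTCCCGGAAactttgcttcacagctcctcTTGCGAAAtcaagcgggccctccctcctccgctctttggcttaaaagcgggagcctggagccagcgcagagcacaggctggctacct
Fgb: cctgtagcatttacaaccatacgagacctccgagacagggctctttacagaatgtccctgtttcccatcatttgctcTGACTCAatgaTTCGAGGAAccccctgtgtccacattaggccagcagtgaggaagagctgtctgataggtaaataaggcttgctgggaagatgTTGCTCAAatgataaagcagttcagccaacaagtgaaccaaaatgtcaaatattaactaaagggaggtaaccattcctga
Hamp: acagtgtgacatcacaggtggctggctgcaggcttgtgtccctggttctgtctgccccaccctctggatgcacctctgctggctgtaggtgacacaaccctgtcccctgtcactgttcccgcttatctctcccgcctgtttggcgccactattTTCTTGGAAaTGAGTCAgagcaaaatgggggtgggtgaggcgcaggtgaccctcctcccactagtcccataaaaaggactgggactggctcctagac
Mt2: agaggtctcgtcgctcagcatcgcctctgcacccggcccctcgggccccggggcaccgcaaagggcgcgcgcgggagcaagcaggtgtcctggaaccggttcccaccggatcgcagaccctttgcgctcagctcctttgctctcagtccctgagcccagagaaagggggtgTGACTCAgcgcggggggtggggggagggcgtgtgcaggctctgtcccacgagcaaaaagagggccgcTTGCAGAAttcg

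In these windows Lcn2 and Saa2 each held 1 C/EBP match, TTGCTCAA from base 216 and TTGCACAA from base 183 before the start. Fgb held AP-1 (TGACTCA, from base 173), STAT (TTCGAGGAA, from base 162) and C/EBP (TTGCTCAA, from base 80) matches. Hamp held a STAT match (TTCTTGGAA, from base 97) directly upstream of an AP-1 match (TGAGTCA, from base 87), and Steap4 a STAT match (TTCCCGGAA, from base 116) and a C/EBP match (TTGCGAAA, from base 87). Mt2 held an AP-1 match (TGACTCA, from base 79) and a C/EBP match (TTGCAGAA, from base 12), and no 2 matches shown overlap. A STAT match lay in the window, here from 250 bases before to 50 after the start, of 45 of 395 genes higher at 6 h that have a window (11.4%), of 5.42% of genes lower and of 6.94% of all genes tested with a window (7885 of 10085). C/EBP matches lay in 46 of 395, 88 of 978 and 689 of 7885 of these windows, AP-1 matches in 29 of 395, 51 of 978 and 394 of 7885. In the same order CRE matches lay in 2.28%, 2.15% and 3.35%, NF-kB in 1.52%, 1.02% and 1.15%, E-box in 11.1%, 9.82% and 10.6% and the serum response element in 1.77%, 1.43% and 1.28%. Over all 27025 windows the shares were 8.47% for STAT, 10.8% for C/EBP, 7.93% for AP-1, 1.88% for CRE, 1.17% for NF-kB, 7.24% for E-box and 1.57% for the serum response element. A match describes letters in a window and is not a site of binding.

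Lcn2, the iron-siderophore-binding lipocalin 2, stood at 4.64, 3.72 and 7.68 FPKM in normal liver and 2752, 3150 and 3618 FPKM at 6 h, 594-fold higher (log2 fold change 9.01 ± 0.71 SE, adjusted p = 5.2e-07). Saa2, a serum amyloid A protein, stood at 28.4, 23.3 and 78.5 FPKM and rose to 8132, 9170 and 8155 FPKM (196-fold). Its neighbour Saa1 went from 85.0, 65.4 and 198 FPKM to 6734, 7834 and 6649 FPKM (61.0-fold). The 3 normal livers differed among themselves in both Saa genes, with replicate 3 the highest, yet each lay far below every 6 h liver. Saa1 and Saa2 are near-identical copies, so reads may have been split between them. Steap4, a metalloreductase, rose 32.1-fold, to 713, 586 and 1467 FPKM, and the interleukin 1 receptor Il1r1 rose 15.1-fold.

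Fgb, the beta chain of fibrinogen, stood at 2362, 2576 and 2378 FPKM in normal liver and 8897, 8567 and 8249 FPKM at 6 h, 3.51-fold higher (log2 fold change 1.81 ± 0.33 SE, adjusted p = 0.00037). Haptoglobin (Hp), named after its values were seen, rose 4.05-fold, from 2325 ± 305 to 9409 ± 1523 FPKM (SD, n = 3). Hamp, which encodes hepcidin, the hormone that limits iron release, was at 372, 1151 and 55.1 FPKM in normal liver and 1439, 1785 and 3093 FPKM at 6 h (log2 fold change 2.79 ± 0.77 SE, adjusted p = 0.0064). The normal livers thus spanned a wide range, and the highest of them came near the lowest 6 h liver. In the iron and haem list 4 of 20 genes were higher and 2 lower, the share lower being near the 12.7% over all genes. The near-identical Hamp2, named after its values were seen, was not called, at 56.2 ± 24.3 FPKM in normal liver and 24.2 ± 14.3 FPKM at 6 h. Ferroportin (Slc40a1), the iron exporter on which hepcidin acts, was 5.58-fold lower (39.0 ± 12.4 to 6.98 ± 1.42 FPKM, adjusted p = 9.0e-06).

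Among proteins known to fall in the acute phase, 0 of 11 tested were significantly lower by limma or by limma voom, and 3 had an unadjusted p under 0.05, 1 of these higher. Albumin (Alb), the main plasma protein, was at 35611, 40900 and 33690 FPKM in normal liver and 32345, 26816 and 34935 FPKM at 6 h, and the groups overlapped (log2 fold change -0.23 ± 0.29 SE, adjusted p = 0.51, with a positive sign under median ratio scaling, 0.07). The 1 member called, the apolipoprotein Apoa4, was 8.14-fold higher (adjusted p = 0.035), a call that was lost without normal liver 1, 2 or 3 or without 6 h liver 2 or 3, at log2 fold changes of 2.51 to 3.21.

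**Figure D2:**
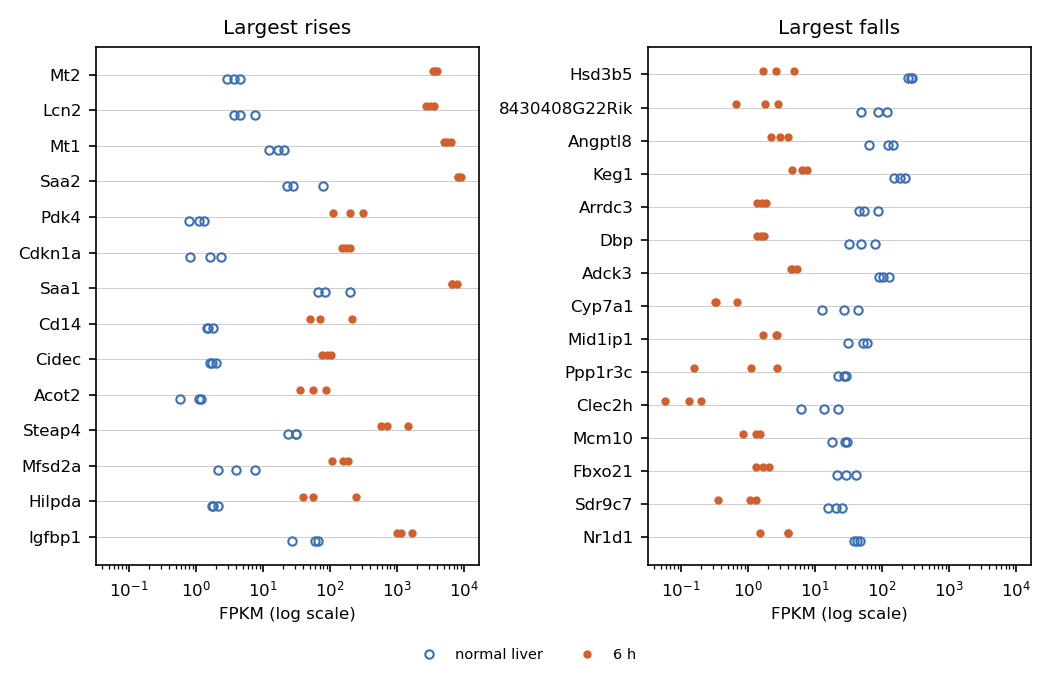
FPKM (log scale) of the largest rises and falls among called genes whose groups do not overlap, with open blue circles for the 3 normal livers and filled orange circles for the 3 livers at 6 h. Mt2, Lcn2 and Mt1 go from at most 20.3 FPKM to at least 2752 FPKM, and Hsd3b5 goes from at least 242 FPKM to at most 4.98 FPKM.

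Among receptors and effectors of IL6 signaling, 11 of 22 tested were higher and 4 lower (12 and 1 with median ratio scaling). In 2 of the 22, each called higher and Osmr among them, fewer than 3 normal livers reached 1 FPKM. Fewer than 3 livers at 6 h did so in 1 gene, called lower. Il6 itself was at 0 reads in the 3 normal livers and at 14, 2 and 0 reads at 6 h, too few for a comparison. Il6ra, the alpha chain of the receptor, rose 3.10-fold, from 6.56, 2.59 and 2.11 FPKM to 13.3, 11.1 and 10.5 FPKM (adjusted p = 0.0025). Il6st, which encodes the shared receptor chain gp130, was at 13.8 ± 1.59 FPKM in normal liver and 27.8 ± 3.94 FPKM at 6 h and missed the 2-fold limit (log2 fold change 0.95 ± 0.15 SE, adjusted p = 0.00012). It was called higher with quantile normalization, median ratio scaling and limma voom, at log2 fold changes of 1.16, 1.24 and 1.33, and without normal liver 1 or 6 h liver 2, at 1.04 and 1.07. Osmr, the partner of gp130 in the oncostatin M receptor, rose 5.76-fold, from 0.625 ± 0.116 to 3.59 ± 0.558 FPKM.

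Stat3, the transcription factor phosphorylated on gp130, stood at 26.0, 22.0 and 25.9 FPKM in normal liver and 97.9, 67.3 and 74.4 FPKM at 6 h, 3.24-fold higher (log2 fold change 1.64 ± 0.17 SE, adjusted p = 4.0e-06). Socs3, the inhibitor that ends gp130 signaling, rose 9.26-fold, from 4.66 ± 1.51 to 43.1 ± 9.14 FPKM (SD, n = 3 each, adjusted p = 0.0014). Cebpd, a C/EBP factor of the acute phase, rose 10.1-fold, from 2.46 ± 0.558 to 24.9 ± 3.66 FPKM, and Cebpb 3.66-fold, from 15.1 ± 9.20 to 55.4 ± 16.5 FPKM. The LIF receptor Lifr and the kinase Tyk2 were lower, Tyk2 from 6.00 ± 1.12 to 1.89 ± 0.311 FPKM (adjusted p = 5.0e-06), although the call on Tyk2 was lost with quantile normalization, at a log2 fold change of -0.96. The call on Lifr (adjusted p = 0.045) was lost without any 1 of the 6 livers, at log2 fold changes of -1.53 to -1.33, and with quantile normalization, median ratio scaling and limma voom, at -1.22, -1.16 and -1.15.

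Immediate early genes are known to be induced without new protein synthesis. Of 22 tested among 27 in the list, 13 were called higher and 0 lower, with a median log2 fold change of 1.41. In 6 of the 22, 5 of them called higher, fewer than 3 normal livers reached 1 FPKM. Btg2, an antiproliferative gene, rose from 3.88, 4.06 and 4.51 FPKM to 210, 97.1 and 99.5 FPKM, 32.7-fold (log2 fold change 4.63 ± 0.66 SE, adjusted p = 4.3e-05). Atf3, a stress-induced repressor, rose 11.6-fold, from 0.688, 0.517 and 1.05 FPKM to 13.1, 7.41 and 5.61 FPKM. Egr1, a zinc finger factor, was at 4.24, 22.4 and 8.37 FPKM and reached 81.5, 48.0 and 30.5 FPKM, with the highest normal liver below the lowest at 6 h.

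The AP-1 subunits Jun and Fos stood at 25.7 ± 2.28 and 7.36 ± 2.19 FPKM at 6 h against 6.29 ± 0.960 and 0.867 ± 0.280 FPKM in normal liver, 4.09-fold and 8.49-fold higher. Myc, which drives growth, went from 1.41, 1.90 and 1.89 FPKM to 12.5, 7.59 and 3.66 FPKM, and Junb from 34.0 ± 11.4 to 101 ± 12.3 FPKM. These 6 h livers differed in Myc by more than the whole spread of the normal ones. The calls on Fos, Junb and Myc lay near the threshold. That on Fos (adjusted p = 0.024) was lost without normal liver 1 or 3 or 6 h liver 1 or 2, at log2 fold changes of 1.96 to 2.12. That on Junb (0.024) was lost without normal liver 1 or 3 or 6 h liver 1 or 3, at 1.35 to 1.61, and that on Myc (0.028) without normal liver 1, 2 or 3 or 6 h liver 1 or 2, at 1.22 to 1.63.

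In TNF and NF-kB signaling, 7 of 22 genes tested were higher and 1 lower. Tnf was at 6, 18 and 17 reads in normal liver and 4, 4 and 11 reads at 6 h, below the level tested. Its receptor Tnfrsf1b rose 4.61-fold, to 32.3, 21.1 and 9.07 FPKM, and the inhibitor Nfkbia stood at 18.1 ± 2.45 FPKM in normal liver and 33.7 ± 9.55 FPKM at 6 h, under the 2-fold limit (log2 fold change 0.83 ± 0.26 SE, adjusted p = 0.014). Nfkbia was called higher with quantile normalization, median ratio scaling and limma voom, at 1.02, 1.12 and 1.19, and just past the limit without 6 h liver 3. Among chemokines 3 of 12 were higher and 3 lower. Cxcl1, which attracts neutrophils, rose 12.1-fold, from 3.07, 17.8 and 2.28 FPKM to 115, 55.0 and 111 FPKM, whereas Cxcl12, a stromal chemokine, was 2.69-fold lower, from 73.9, 70.0 and 55.6 FPKM to 20.5, 30.6 and 23.2 FPKM.

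Markers of blood and sinusoidal cells went in different directions. The summed level of 14 neutrophil markers was 3.65 to 8.90 FPKM in normal liver and 46.7 to 48.7 FPKM at 6 h, with 4 of 6 tested higher (S100a8, S100a9, Retnlg and Mmp8, the last of these named after its values were seen). Of these 6 markers, 5 had fewer than 3 normal livers at 1 FPKM, among them 3 of the 4 called higher. S100a9 stood at 1.35, 3.70 and 2.18 FPKM and reached 24.3, 24.6 and 23.9 FPKM, while 3 granule genes of the list were at 0 in all 6 h libraries. Ly6g, the defining surface marker, named after its values were seen, was at 0, 0.118 and 0 FPKM in normal liver and 0.0277, 0.0950 and 0.140 FPKM at 6 h. The part of these cells in the rises of Lcn2, Il1r1, Cxcl1 and the other genes above was not tested.

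Of the markers of Kupffer cells, the resident macrophages of the liver, 10 of 14 were called lower and 0 higher, with a median log2 fold change of -1.19. Their summed level was 284 to 434 FPKM in normal liver and 110 to 215 FPKM at 6 h, and none of the 14 was at 0. Clec4f went from 37.5, 60.4 and 53.9 FPKM to 10.9, 21.4 and 17.9 FPKM (log2 fold change -1.56 ± 0.24 SE, adjusted p = 8.2e-05), while the scavenger receptor Marco, named after its values were seen, was at 5.60 ± 1.39 and 7.91 ± 3.58 FPKM. With median ratio scaling 6 of 14 were lower. In bulk tissue fewer cells of a type and less RNA per cell cannot be told apart.

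Sinusoidal endothelial markers summed to 234 to 252 FPKM in normal liver and 128 to 155 FPKM at 6 h, with 4 of 15 lower and 1 higher (2 and 1 with median ratio scaling). The VEGF receptor Kdr was 3.91-fold lower (9.03, 7.88 and 7.43 to 1.51, 2.46 and 2.26 FPKM), and the hyaluronan receptor Lyve1 4.88-fold higher (3.70, 2.90 and 3.11 to 16.1, 14.2 and 17.1 FPKM). Stellate cell markers overlapped between groups, at 150 to 196 and 173 to 214 FPKM, with Hgf and Acta2, each with fewer than 3 normal livers at 1 FPKM, called higher among 14. The call on Acta2, at 3.92, 4.19 and 1.16 FPKM at 6 h, was lost without 6 h liver 1 or 2, at log2 fold changes of 1.07 and 1.03. Cholangiocyte markers summed to 34.5 to 40.8 FPKM and 42.3 to 86.1 FPKM, with 1 of 4 higher and 1 lower. The higher one, Sox9, with 2 normal livers at 1 FPKM and also known from hepatocyte progenitors, spread from 3.34 to 22.5 FPKM at 6 h, and its call was lost without 6 h liver 1, at a log2 fold change of 1.51. Recruited monocyte markers summed to 256 to 317 FPKM and 169 to 208 FPKM, with 1 of 6 tested lower (0 with median ratio scaling). Most of this sum was F10, named after its values were seen, at 191 to 234 and 124 to 161 FPKM and not called. The gene called lower was Lyz2, at 53.5 to 89.8 and 22.6 to 39.0 FPKM. Of the 6 tested, 4 had a positive log2 fold change, with a median of 0.20 over the 6, and 0 were called higher. In 2 of the 6 fewer than 3 normal livers reached 1 FPKM. Red blood cell markers summed to 87.4 to 150 FPKM and 38.6 to 149 FPKM (1 of 5 lower, the haem synthesis enzyme Alas2), platelet markers to 2.69 to 3.34 FPKM and 4.44 to 6.36 FPKM (1 of 2 higher, both with fewer than 3 normal livers at 1 FPKM), and pancreas and fat markers to 28.2 to 34.1 FPKM and 8.63 to 19.3 FPKM (1 of 2 lower). Nearly all of the last sum was Cela1, at 25.2 to 31.9 and 8.35 to 19.0 FPKM and not called. The gene called lower was Cela2a, at 1.38 to 2.12 and 0.139 to 0.427 FPKM, a call lost with quantile normalization, median ratio scaling and without normal liver 3, at log2 fold changes of -0.95, -0.98 and -0.94. Cfd reached 1.51 FPKM in normal liver 2, and the other 8 genes of that list were at or near 0 in every library. The call on Alas2 was lost under quantile normalization, median ratio scaling and limma voom and without normal liver 1, 2 or 3 or 6 h liver 1 or 3, at log2 fold changes of -1.34 to -1.02. Most of the red blood cell sum in normal liver was Alas2, at 76.1 to 83.0 FPKM against 29.3 to 34.1 FPKM at 6 h. The 4 globin genes of that list had log2 fold changes of 0.68 to 0.96, with the groups overlapping. These globin genes were not called as deposited, and 1 of them was called higher with median ratio scaling.

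**Figure D3:**
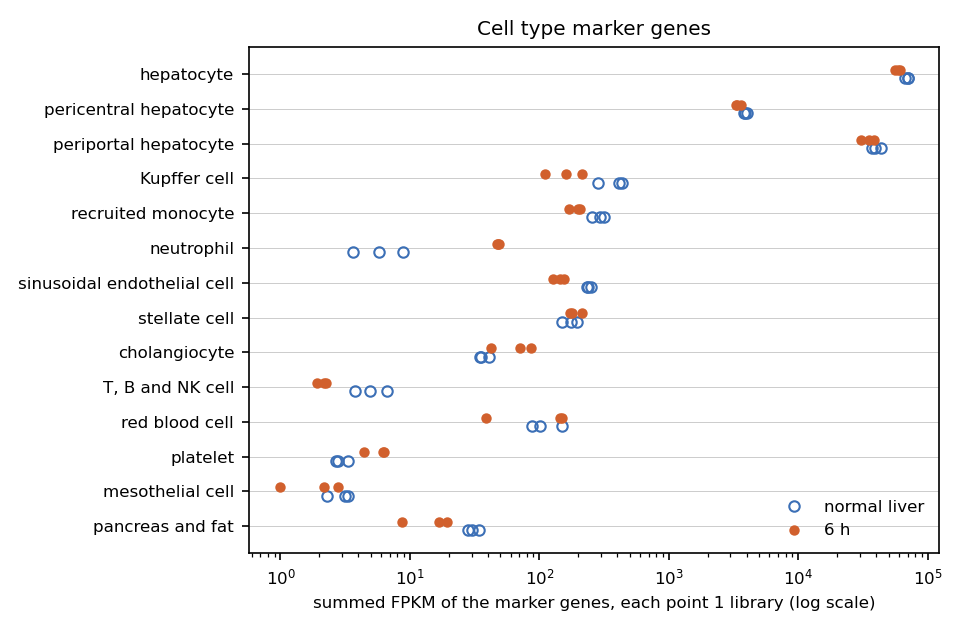
Summed FPKM (log scale) of the marker genes of 14 cell types, 1 point per library, with open blue circles for normal liver and filled orange circles for 6 h. Neutrophil markers lie higher at 6 h, at 46.7 to 48.7 FPKM against 3.65 to 8.90 FPKM, Kupffer cell and sinusoidal endothelial markers lie lower, and hepatocyte markers are by far the most abundant in both groups.

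In the HGF and EGF axis, 4 of 17 genes tested were higher and 3 lower (5 and 2 with median ratio scaling). In 4 of the 17, Hgf and Dusp5 among them, fewer than 3 normal livers reached 1 FPKM, and 3 of these were called higher. Hgf, the ligand of Met made by stellate cells, rose 4.16-fold, from 1.19, 1.64 and 0.820 FPKM to 3.86, 4.23 and 7.10 FPKM (adjusted p = 0.0039). Its receptor Met stood at 9.17 ± 1.75 FPKM in normal liver and 8.67 ± 0.877 FPKM at 6 h, and Egfr at 113 ± 24.9 and 97.2 ± 12.8 FPKM. Neither was called, and the sign of both turned with scaling (log2 fold changes of -0.06 for Met and -0.20 for Egfr as deposited, 0.21 and 0.09 with median ratio scaling). The EGFR ligand Areg was at 2, 0 and 0 reads in normal liver and 16, 10 and 22 reads at 6 h. The ERK phosphatase Dusp5 rose from 0.270 ± 0.0712 FPKM in normal liver to 15.5, 8.93 and 2.78 FPKM at 6 h (33.6-fold), and the EGFR inhibitor Errfi1 rose 2.35-fold. Lower genes were Erbb3, the FGF21 and FGF15 coreceptor Klb, and Vegfa, the last of which missed the limit with median ratio scaling (log2 fold change -0.93).

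Genes of proteolysis and matrix had 8 of 15 tested higher and 2 lower, and 6 of the 8 had fewer than 3 normal livers at 1 FPKM. Ctgf, a matricellular target of YAP, stood at 0.970, 0.835 and 1.68 FPKM in normal liver and 11.3, 9.68 and 12.4 FPKM at 6 h, 9.56-fold higher (adjusted p = 4.8e-05). The membrane protease Mmp15 was 9.28-fold lower, from 17.9, 10.7 and 17.9 FPKM to 1.60, 2.05 and 1.35 FPKM, and all its 6 h livers lay below all normal ones. In activin, TGF-beta and BMP signaling, 5 of 18 were higher and 1 lower. Fewer than 3 normal livers reached 1 FPKM in 2 of the 5, Inhbb among them. The activin subunit Inhbb rose 15.8-fold, from 0.847, 0.531 and 0.248 FPKM to 8.53 ± 2.18 FPKM (SD, n = 3), while the hepatic subunit Inhbc was 2.96-fold lower, from 42.0, 34.2 and 42.3 FPKM to 7.57, 15.2 and 17.3 FPKM. The BMP targets Id1 and Id3 rose 4.37-fold and 3.70-fold.

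No gene of the cell cycle machinery tested was called higher at 6 h. Of 20 DNA replication genes tested 0 were higher and 9 lower, with a median log2 fold change of -0.94 (6 lower with median ratio scaling, median -0.76). In 11 of the 20, 5 of them called lower, fewer than 3 livers at 6 h reached 1 FPKM. Mcm10, a replication initiation factor, was at 17.8, 28.3 and 30.4 FPKM in normal liver and 0.839, 1.31 and 1.53 FPKM at 6 h, 20.8-fold lower (adjusted p = 0.00055). Thymidine kinase 1 (Tk1) was 4.26-fold lower, and Pcna, the sliding clamp, overlapped between groups at 22.9 ± 2.23 and 22.4 ± 2.35 FPKM. Among mitosis genes only 4 of 24 reached the level tested, 2 of them lower (1 with median ratio scaling). In 2 of the 4, 1 of them called lower, fewer than 3 livers at 6 h reached 1 FPKM. Mki67 was at 285, 143 and 218 reads in normal liver and 28, 106 and 20 reads at 6 h. Of 11 G1 cyclins, kinases and E2F factors tested, 0 were called in either direction by limma, although 5 had an unadjusted p under 0.05, 0 of these higher, and limma voom called 1 lower. In 6 of the 11 fewer than 3 livers at 6 h reached 1 FPKM. Ccnd1, cyclin D1, stood at 9.46, 5.71 and 7.17 FPKM against 4.05, 4.78 and 4.93 FPKM (log2 fold change -0.58 ± 0.34 SE, adjusted p = 0.16).

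An inhibitor of the cell cycle was among the largest rises. Cdkn1a, which encodes p21, stood at 2.34, 0.827 and 1.64 FPKM in normal liver and 176, 153 and 200 FPKM at 6 h, 110-fold higher (log2 fold change 6.12 ± 0.68 SE, adjusted p = 6.4e-06). The stress genes Gadd45g and Gadd45b rose 8.80-fold and 12.7-fold. In this list of inhibitors and p53 targets 5 of 20 were higher and 3 lower, the latter with Bbc3, the apoptotic gene PUMA, 8.62-fold lower (9.06 ± 1.35 to 1.05 ± 0.456 FPKM). Fewer than 3 normal livers reached 1 FPKM in 2 of the 5, Cdkn1a among them. Fewer than 3 livers at 6 h did so in 2 of the 3, Bbc3 among them. The 4 transcription factors that the study knocked down in IL6-iHPCs, its induced hepatic progenitor cells, were below the level tested. Barx2 was at 0 reads in the 3 normal livers and 21, 15 and 29 reads at 6 h, Elf3 at 30, 23 and 39 reads against 116, 83 and 59, Foxm1 at 70, 21 and 29 against 18, 11 and 17, and Mxd3 at 18, 16 and 27 against 26, 15 and 24.

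Of 32 ribosome biogenesis genes 4 were higher and 0 lower, with a median log2 fold change of 0.19 against -0.29 over all genes (8 higher, median 0.47, with median ratio scaling). Nop58, a core protein of box C/D nucleolar RNPs, rose 3.89-fold (8.02, 8.24 and 12.4 to 36.8, 27.5 and 47.3 FPKM), and the 18S processing factor Heatr1 4.34-fold. In the endoplasmic reticulum, 6 of 24 folding and stress genes were higher and 0 lower, among them the chaperone Dnajb9, 5.41-fold (32.3, 23.9 and 22.2 to 116, 140 and 169 FPKM). In the amino acid stress response 4 of 18 were higher and 1 lower. The amino acid transporter Slc38a2 rose 3.41-fold, while Gdf15, a circulating stress hormone, rose 7.37-fold, with its call (adjusted p = 0.031) lost without normal liver 1 or 3 or 6 h liver 1 or 2, at log2 fold changes of 2.38 to 2.81. Among 13 heat shock genes 1 was higher and 1 lower, and among 26 Myc cofactors and genes of polyamine and nucleotide synthesis 2 were higher and 3 lower. The shares in these last 2 lists lay near those over all genes, 5.20% higher and 12.7% lower.

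**Figure D4:**
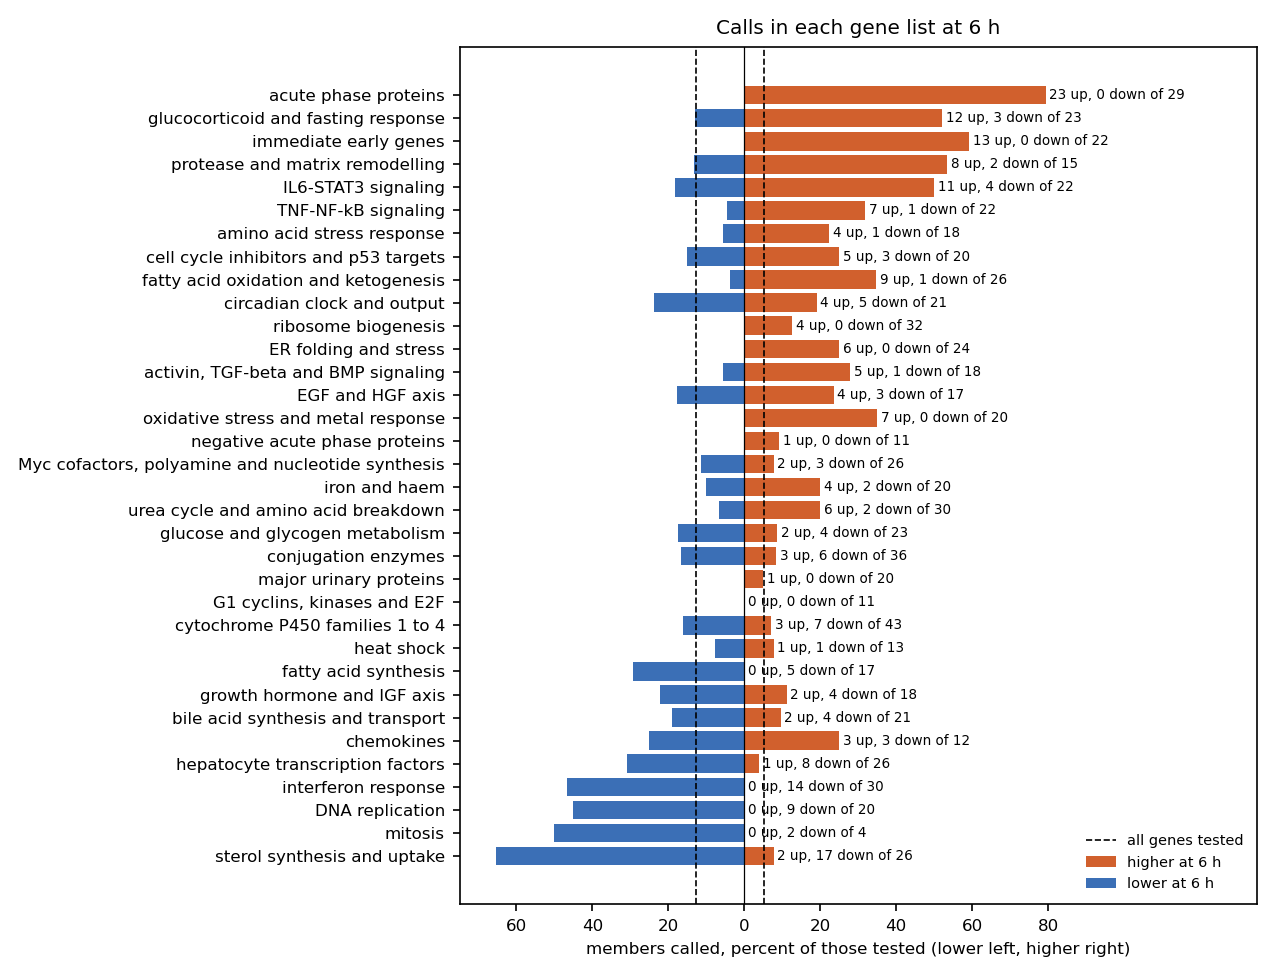
Share of the tested members of each gene list that were called higher (orange, to the right) or lower (blue, to the left) at 6 h, in order of the lists' median log2 fold change, with the counts printed beside the bars. Dashed lines mark the shares over all genes tested, 5.20% and 12.7%. Acute phase proteins stand at one end with 23 of 29 higher, and sterol synthesis and uptake at the other with 17 of 26 lower.

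Genes known to respond to glucocorticoids and fasting had 12 of 23 tested higher and 3 lower, with a median log2 fold change of 1.42. In 3 of the 23 fewer than 3 normal livers reached 1 FPKM, and 2 of these, Pdk4 and Cdkn1a, were called higher. Pdk4, the kinase that turns off pyruvate dehydrogenase, stood at 1.08 ± 0.268 FPKM in normal liver and 309, 110 and 198 FPKM at 6 h, 190-fold higher (log2 fold change 6.52 ± 1.18 SE, adjusted p = 0.00031). Igfbp1, an insulin-repressed binding protein of IGFs, rose 25.2-fold, from 65.5, 27.3 and 59.7 FPKM to 1701, 1017 and 1131 FPKM. Fkbp5, a glucocorticoid receptor target named after its values were seen, rose 10.1-fold, and tyrosine aminotransferase (Tat) from 490 ± 168 to 1962 ± 177 FPKM. Other members of the list did not rise. Pck1, which encodes the gluconeogenic enzyme PEPCK, overlapped between groups at 664 ± 52.0 and 724 ± 171 FPKM. Klf15 was 2.37-fold lower and Tsc22d3 2.56-fold lower, but both missed the limit with median ratio scaling (log2 fold changes of -0.92 and -0.99), and Tsc22d3 also without normal liver 1 or 3 or 6 h liver 1 (-1.14 to -0.98). G6pc, the last enzyme of glucose release, was at 120, 67.9 and 209 FPKM in normal liver and 47.0 ± 30.7 FPKM at 6 h, with the groups overlapping. Its call (adjusted p = 0.021) was lost without normal liver 3 or 6 h liver 1, at log2 fold changes of -1.26 and -0.88, and with median ratio scaling and limma voom, at -1.37 and -1.36.

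Of genes of glucose and glycogen metabolism 2 of 23 were higher and 4 lower. In 3 of the 23 fewer than 3 livers at 6 h reached 1 FPKM, and 1 of these, Ppp1r3c, was called lower. The glycogen-targeting subunit Ppp1r3c was 19.4-fold lower, at 28.8, 26.9 and 22.3 FPKM in normal liver and 0.160, 1.11 and 2.75 FPKM at 6 h. In fatty acid synthesis 0 of 17 were higher and 5 lower, among them the regulators Srebf1, at 57.7, 65.7 and 72.0 FPKM against 10.6, 8.89 and 8.84 FPKM (6.89-fold lower, adjusted p = 3.5e-05), and Mlxipl, which encodes ChREBP, 6.41-fold lower. Fatty acid synthase (Fasn), their joint target, named after its values were seen, overlapped between groups at 56.7 ± 25.9 and 31.7 ± 18.6 FPKM (adjusted p = 0.12).

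Sterol synthesis and uptake was the pathway list with the largest share of falls, 17 of 26 lower and 2 higher, with a median log2 fold change of -1.37 (13 lower, median -1.10, with median ratio scaling). Hmgcs1, which makes HMG-CoA for the mevalonate pathway, went from 133, 114 and 163 FPKM to 25.7, 17.9 and 7.47 FPKM, 8.02-fold lower (log2 fold change -3.07 ± 0.50 SE, adjusted p = 0.00013). Sc5d, a late enzyme of the pathway, fell from 177, 173 and 204 FPKM to 22.0 ± 5.27 FPKM (SD, n = 3), and the sterol carrier Stard4 was lower too, at 4.10 ± 2.37 against 34.5 ± 5.18 FPKM. In these genes all 6 h livers lay below all normal ones. The 2 genes called higher were Insig2, which retains the SREBP complex in the endoplasmic reticulum (6.94-fold, 414, 848 and 303 FPKM at 6 h), and the cholesterol exporter Abca1 (5.78-fold, 79.2, 58.7 and 81.1 FPKM).

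In the list for fatty acid oxidation and ketogenesis 9 of 26 genes were higher and 1 lower, with a median log2 fold change of 0.26. In 2 of the 26, Acot2 and Pdk4, each called higher, fewer than 3 normal livers reached 1 FPKM. The mitochondrial thioesterase Acot2 rose 61.9-fold, from 1.18, 1.12 and 0.581 FPKM to 86.8, 56.2 and 35.5 FPKM. Plin2, which coats lipid droplets, rose from 558, 319 and 310 FPKM to 2892, 2781 and 2385 FPKM (6.79-fold, adjusted p = 0.0018). Outside this list, the droplet proteins Cidec and Hilpda, both among the 15 largest rises, were 50.2-fold and 59.7-fold higher, Hilpda with 245 FPKM in 6 h liver 1 and 55.7 and 39.4 FPKM in the others. Mfsd2a, a transporter of lysophospholipids, rose 32.5-fold. Angptl8, an insulin-induced inhibitor of lipoprotein lipase, was 36.4-fold lower, from 123, 64.9 and 147 FPKM to 3.02, 3.97 and 2.22 FPKM. Mid1ip1, an activator of acetyl-CoA carboxylase, was 20.7-fold lower.

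Bile acid synthesis and transport had 4 of 21 genes lower and 2 higher. In 3 of the 21 fewer than 3 livers at 6 h reached 1 FPKM, and 1 of these, Cyp7a1, was called lower. Fewer than 3 normal livers did so in 1 gene, Slc51b, called higher. Cyp7a1, the rate-limiting enzyme, went from 27.5, 13.0 and 44.8 FPKM to 0.327, 0.694 and 0.336 FPKM, 62.8-fold lower (log2 fold change -4.19 ± 1.26 SE, adjusted p = 0.011). Its call was lost with limma voom on recovered reads, at a larger log2 fold change of -5.55. Hsd3b7, the next enzyme of the pathway, stood at 359, 331 and 346 FPKM against 54.0, 53.5 and 60.9 FPKM, 6.16-fold lower, with close replicates (log2 fold change -2.60 ± 0.14 SE, adjusted p = 1.9e-08). Cyp8b1, which makes cholic acid, was at 163 ± 35.8 and 31.6 ± 10.8 FPKM, its groups did not overlap, and it was not called in the fit of 6 groups (adjusted p = 0.072) but was called lower when only the 6 samples compared were fitted. The receptor FXR (Nr1h4) was 2.60-fold lower, at 10.4, 17.8 and 45.2 FPKM at 6 h against 61.9, 67.9 and 60.8 FPKM. The 2 genes called higher were both of transport. Slc10a2 was 4.16-fold higher. Slc51b was at 0.832, 0.0735 and 1.77 FPKM in normal liver and 21.7, 10.6 and 0.782 FPKM at 6 h, with the groups overlapping (adjusted p = 0.044).

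Among cytochrome P450 genes of families 1 to 4 and their reductase, 3 of 43 were higher and 7 lower (3 and 3 with median ratio scaling). Cyp2b10, a target of the receptor CAR, rose 17.5-fold, to 10.6, 21.1 and 53.6 FPKM, and the reductase Por 3.58-fold. Cyp2u1 was 16.8-fold lower, and was the 1 gene called lower with fewer than 3 livers at 6 h at 1 FPKM. Conjugation enzymes had 3 of 36 higher and 6 lower (2 lower with median ratio scaling), with the glutathione transferases Gstt3 4.01-fold higher and Gstm4 3.40-fold lower. Shares called lower in these lists lay near those over all genes. In the urea cycle and amino acid breakdown 6 of 30 were higher and 2 lower, with the lysine-degrading enzyme Aass 10.4-fold higher, from 62.3, 68.1 and 62.6 FPKM to 749, 753 and 510 FPKM (log2 fold change 3.34 ± 0.15 SE, adjusted p = 2.7e-09).

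Of 26 hepatocyte transcription factors tested, 8 were lower and 1 higher (7 and 4 with median ratio scaling). Cebpa, which maintains the differentiated hepatocyte, went from 191, 252 and 208 FPKM to 62.0, 32.0 and 34.0 FPKM, 5.09-fold lower (log2 fold change -2.37 ± 0.35 SE, adjusted p = 6.1e-05), opposite in sign to Cebpb and Cebpd. Hnf4a, the other main factor of hepatocyte identity, was at 164, 87.2 and 117 FPKM and 174, 195 and 145 FPKM, and its groups overlapped (log2 fold change 0.51 ± 0.18 SE, adjusted p = 0.026, under the 2-fold limit). Gata6 rose 3.03-fold, from a low level.

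On the log2(FPKM + 1) scale the largest fall was that of Hsd3b5, whereas by the ratio of means it was that of Clec2h among the genes named here, at 6.26, 22.6 and 13.8 FPKM in normal liver and 0.199, 0.134 and 0.0589 FPKM at 6 h (109-fold). Hsd3b5, a steroid dehydrogenase of male mouse liver, went from 242, 285 and 274 FPKM to 4.98, 1.71 and 2.60 FPKM, 86.3-fold lower (log2 fold change -6.11 ± 1.10 SE, adjusted p = 0.00030). Elovl3 and Igfals, which encodes the acid-labile subunit of the IGF complex, were 5.43-fold and 7.00-fold lower. In the growth hormone and IGF list 2 of 18 were higher and 4 lower. Igf1 itself stood at 98.0 ± 10.5 and 110 ± 4.91 FPKM and was not called. Of 20 major urinary protein genes, near-identical copies among which reads may have been split, 1 was higher and 0 lower. The share higher lay near the 5.20% over all genes. The gene called higher was Mup1, at 1068, 140 and 226 FPKM at 6 h. Its call was lost without 6 h liver 1, at a log2 fold change of 0.66, and without normal liver 1, 2 or 3, at 1.44 to 1.59.

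Clock genes moved in both directions, with 4 of 21 higher and 5 lower. In 2 of the 21 fewer than 3 livers at 6 h reached 1 FPKM, and 1 of these, Per3, was called lower. Dbp, an output factor, went from 32.5, 79.5 and 48.7 FPKM to 1.58 ± 0.179 FPKM (SD, n = 3), 34.0-fold lower (log2 fold change -4.32 ± 0.60 SE, adjusted p = 3.8e-05). Nr1d1, which encodes the repressor REV-ERB alpha, went from 42.5 ± 4.58 to 3.18 ± 1.45 FPKM, 13.3-fold lower, and Per3 was 9.62-fold lower. Per1, also a glucocorticoid target, was higher, at 1.78, 1.25 and 2.12 FPKM in normal liver and 8.08, 7.78 and 9.45 FPKM at 6 h, and the Dbp antagonist Nfil3 rose 4.30-fold. Arntl, which encodes BMAL1, was at 1.52, 0.543 and 1.19 FPKM and 1.01, 2.71 and 3.18 FPKM, and its groups overlapped. It was called higher with limma voom alone of the alternatives run, at a log2 fold change of 1.33. The hour of collection is not given in the sources used here and cannot be told apart from the time after surgery.

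Many interferon response genes were lower, with 14 of 30 called lower, 0 higher and a median log2 fold change of -0.84 (10 lower, median -0.69, with median ratio scaling). In 5 of the 30, 0 of them called lower, fewer than 3 livers at 6 h reached 1 FPKM. Oasl1, an interferon-induced translation inhibitor, went from 9.82, 9.61 and 13.6 FPKM to 2.45, 1.91 and 1.37 FPKM, 5.78-fold lower (adjusted p = 2.6e-05). The antiviral gene Ifit1 was 5.73-fold lower and the peptide transporter Tap1 4.90-fold lower, each with all 6 h livers below all normal ones. Summed Kupffer cell markers were lower in the same livers, at 110 to 215 against 284 to 434 FPKM, and markers of T, B and NK cells too, at 1.91 to 2.24 against 3.74 to 6.71 FPKM. Their part in the list's falls was not tested.

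**Figure D5:**
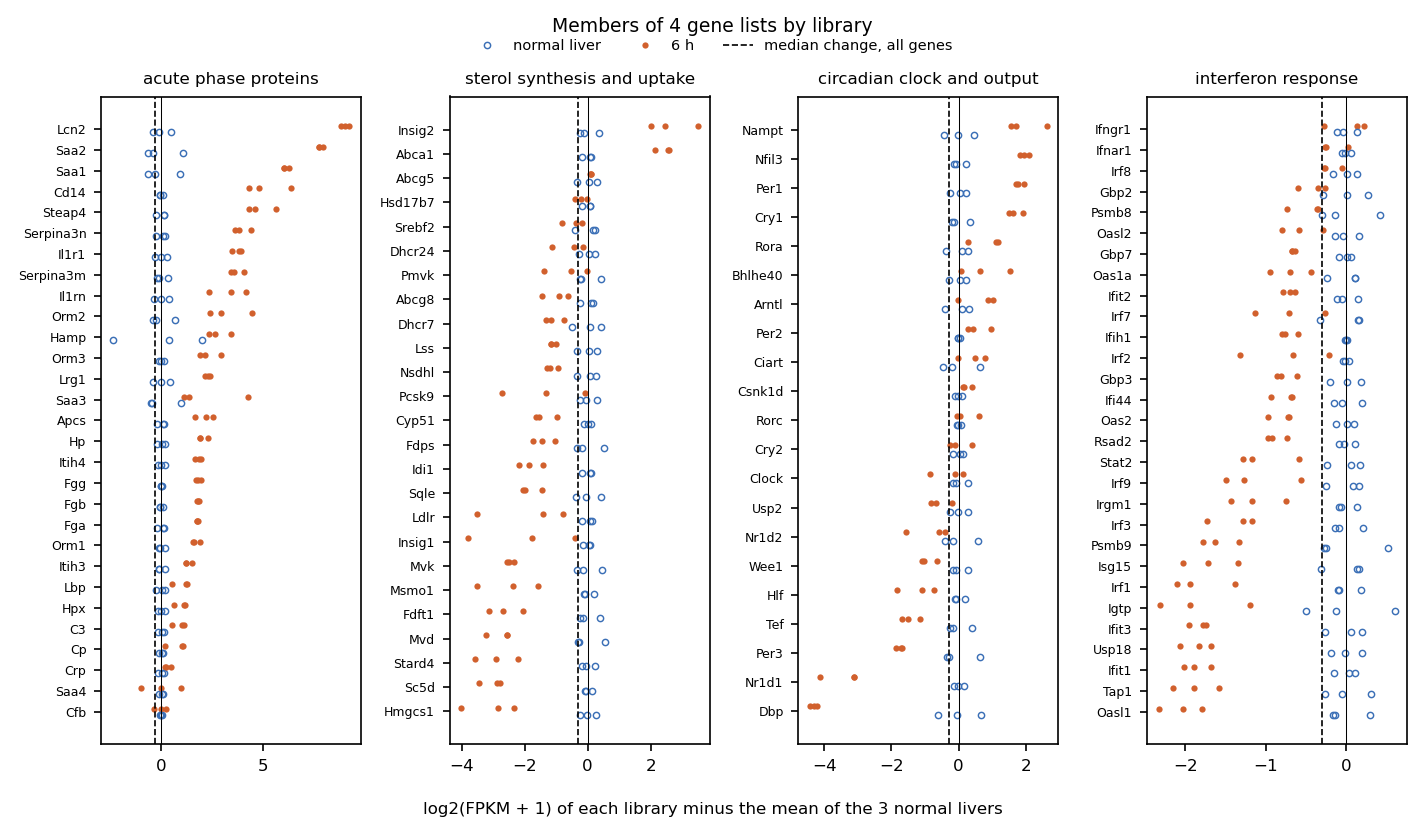
Level of the tested members shown of 4 lists in each library, as log2(FPKM + 1) minus the mean of the 3 normal livers (open blue circles, normal liver; filled orange circles, 6 h; dashed line, median change of all genes, -0.29). Acute phase proteins lie to the right and sterol and interferon genes mostly to the left, while clock genes lie on both sides, from Nampt at 1.96 to Dbp at -4.32.

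Levels at 24 h were compared with those at 6 h for the 10 largest rises and 10 largest falls. These genes were chosen by their 6 h values, which are also in this comparison, so a move back toward normal liver is favoured by the choice and is given as a description. Of the 10 rises, 2 were significantly lower at 24 h than at 6 h, and of the 10 falls 2 were significantly higher, with 7.22% of all genes called between these times in either direction. Pdk4 stood at 1.03, 45.8 and 10.6 FPKM at 24 h (log2 difference -4.20 ± 1.18 SE, adjusted p = 0.011), and Cdkn1a at 5.90, 70.9 and 37.3 FPKM (-2.72 ± 0.68 SE, adjusted p = 0.0059). Angptl8 stood at 104, 7.19 and 42.8 FPKM (3.06 ± 0.93 SE, adjusted p = 0.017) and Ppp1r3c at 20.7, 4.73 and 8.04 FPKM (2.31 ± 0.65 SE, adjusted p = 0.011). In each of these 4 genes replicate 1 at 24 h was the nearest to normal liver and replicate 2 the farthest. Lcn2 remained at 4175 ± 1467 FPKM, Saa2 at 12824 ± 2639 FPKM and Mt2 at 2126 ± 1053 FPKM at 24 h, and none of these differed from 6 h by the test (adjusted p = 0.73, 0.53 and 0.12). At D14 the means were 27.0 FPKM for Lcn2, 94.4 FPKM for Saa2 and 404 FPKM for Mt2, against 5.34, 43.4 and 3.73 FPKM in normal liver.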

How the data were processed

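Livers were profiled by mRNA sequencing (poly-T selection, paired reads). FPKM values were deposited by the authors as 1 table of 18 liver samples, and the submitters' processing notes name TopHat 1.4.1, Cufflinks 1.3.0 and mm10. That the values are FPKM was inferred from the table, and duplicate symbols (2) were averaged. Samples were grouped by their labels. Genes with at least 1 FPKM in 3 or more of the 6 libraries were tested with limma 3.58.1 (R 4.3.3, moderated test with trend) on log2(FPKM + 1) with the 6 liver groups fitted together, and p-values were adjusted by the Benjamini-Hochberg method over the 10085 genes. Values were whole multiples of 1 read, within 0.02 of a read, in 100.0% of rows, so reads were recovered and limma voom with TMM factors was run as an alternative. The other alternatives changed the pseudocount, filter, scaling, threshold, block and libraries, and the test was checked on simulated data.

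Genes were named if among the 15 largest rises or falls whose groups do not overlap, if among the 3 largest called rises or falls of a list, or if on a fixed list of genes. The gene lists, markers and members were chosen with earlier results of these data known. As deposited, 25 symbols had been turned into dates, and these were kept as they stand. A few genes are not reported here.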

Additional observations from a re-analysis of the deposited data

Results flagged for a closer look

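The levels of 4 genes differed between 6 h and 24 h after PHX in the test of that difference. The log2 difference, 24 h minus 6 h, was -4.20 for Pdk4 and -2.72 for Cdkn1a, which were higher at 6 h than in normal liver. It was 3.06 for Angptl8 and 2.31 for Ppp1r3c, which were lower at 6 h. The 20 genes examined were chosen by their 6 h values, and the 24 h livers were not left out in turn.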

How the results depend on the processing

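Of 174 named genes that were called, 129 kept the call in every setting run for that gene and 0 changed direction. The other fold limits were run for the counts of genes only. The filter at 5 FPKM held 78 of the named genes called higher and 71 of those called lower. Of the 174, 23 lost the call under quantile normalization and 20 under median ratio scaling. The number of genes higher at 6 h after PHX was 1022 with limma voom on recovered reads, and the number of genes lower at 6 h after PHX was 693 with quantile normalization and 795 with median ratio scaling. Without a fold limit 1329 genes were higher and 4210 lower, at 1.5-fold 921 and 2917, and at 4-fold 163 and 153. Leaving out 1 library at a time gave 459 to 524 genes higher and 1140 to 1396 lower. With the replicate number as a replicate block, 522 genes were higher and 1280 lower. Deviations of same-numbered samples correlated at -0.06, -0.18 and -0.07, so the numbers were not taken to pair the samples. Of 47 lists with a median log2 fold change, 13 had a median that changed sign in at least 1 setting. That of the recruited monocyte markers was 0.20 as deposited and -0.49 with the filter at 5 FPKM. The sign of 5 uncalled log2 fold changes depended on the setting. Under median ratio scaling and limma voom the log2 fold change of Alb was 0.065 and 0.093, and that of Egfr 0.094 and 0.13. Under quantile normalization, median ratio scaling and limma voom Met was at 0.22, 0.21 and 0.26, and Pcna at 0.21, 0.25 and 0.29. Pck1 was at -0.035 under quantile normalization. Leaving out 1 library at a time gave -0.21 to 0.039 for Met, -0.12 to 0.040 for Pcna and -0.032 to 0.31 for Pck1. With a pseudocount of 0.1 the log2 difference 24 h minus 6 h of Hsd3b5 was -0.038. The cause of these changes was not tested. Depth limits Il6, with 0 to 14 reads in each of the 6 libraries.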
